A study of Mus musculus with 3 samples.

Results

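The endothelin system was followed through 8 of the 32227 genes listed for single-nucleus RNA sequencing of mouse dorsal root ganglia (DRG), and the members were chosen by name. They are 3 ligand genes (Edn1, Edn2, Edn3), 2 receptor genes (Ednra, Ednrb) and 3 peptidase genes (Ece1, Ece2, Mme). Nuclei came from frozen L3 to L5 DRG of C57BL/6 mice without any treatment. The adult group was 1 library from mice of 3 months, and the aged group was 2 libraries from mice of 21 months. The design text of the series states a different age for the aged group, and the age on the sample labels was used. The study calls the libraries biological replicates, and the number of mice behind each is not given in the sources used here.

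Endothelins are short vasoactive peptides. Each is cut from a long precursor in stages: furin-type convertases release an inactive big endothelin, and an endothelin-converting enzyme, encoded by Ece1 or Ece2, then cuts the bond after a tryptophan to free the active peptide. Neprilysin, encoded by Mme, is a related zinc peptidase of the cell surface that degrades endothelins, tachykinins, enkephalins and natriuretic peptides. The endothelin A receptor, encoded by Ednra, prefers endothelin 1 and endothelin 2 and contracts vessels from smooth muscle and pericytes, whereas the endothelin B receptor, encoded by Ednrb, takes all 3 ligands and is known from glia, the neural crest and the vessel lining.

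The stretch of each ligand gene that encodes the mature peptide is shown because it carries the bond that the converting enzymes cut. Each run of 66 bases lies within exon 2 of its gene, on the plus strand, and was read from the GENCODE M21 annotation of GRCm38. It is the mature peptide followed by 1 more codon, and the capitals mark the codons on either side of the cut. Edn1 is at chr13:42303649-42303714, Edn2 at chr4:120161951-120162016 and Edn3 at chr2:174761749-174761814.
Edn1: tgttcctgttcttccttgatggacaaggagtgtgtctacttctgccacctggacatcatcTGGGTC
Edn2: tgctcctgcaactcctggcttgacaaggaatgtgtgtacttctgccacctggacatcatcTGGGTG
Edn3: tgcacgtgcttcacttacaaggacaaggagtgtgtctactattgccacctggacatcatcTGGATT
Edn1 and Edn2 shared 55 of the 66 bases, Edn1 and Edn3 shared 51, and Edn2 and Edn3 shared 49.

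The 3 peptidases hold the same kind of zinc site, and its coding bases are shown because this site is what makes each of them a peptidase. The 27 bases lie within exon 17 of Ece1 (chr4:137957166-137957192), exon 16 of Ece2 (chr16:20643884-20643910) and exon 18 of Mme (chr3:63362015-63362041), all on the plus strand of GRCm38. The capitals mark the codons from the first to the last histidine of the site.
Ece1: gtgggcCACGAGCTGACTCACgctttc
Ece2: atgggcCATGAGTTGACACATgccttt
Mme: attggaCATGAAATCACACATggattt
Ece1 and Ece2 shared 20 of these 27 bases, Ece2 and Mme also shared 20, and Ece1 and Mme shared 15. When translated, Ece1 and Ece2 shared 8 of 9 residues, and each of them shared 6 of 9 with Mme. The genes Edn1, Ednra and Ece1 overlap annotated genes on the opposite strand, and whether the counting used strand is not given in the sources used here. The antisense genes at Edn1 and Ece1 held 2 and 6 UMIs, and the one at Ednra held 813 UMIs beside the 2711 of Ednra. Ece2 overlaps a readthrough gene on its own strand that has no entry in the tables, so the split of reads between these cannot be known and the Ece2 values are uncertain to that extent.

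The libraries held 167664164 (adult), 95647106 (aged 1) and 69045987 (aged 2) unique molecular identifiers (UMIs), of which 53.8% to 58.4% were in nuclei with more than 1000 genes. These were 11518, 5130 and 2611 nuclei with a median of 3269, 4317.5 and 4900 UMIs, and at most 1 barcode was shared between any pair of libraries. The sample labels call all 3 libraries male, but Xist, the RNA of the inactive X chromosome, stood at 1414, 844 and 929 counts per 1000000 UMIs (CPM) and was found in 85.5%, 66.3% and 72.2% of nuclei. Of the Y-linked genes, Ddx3y stood at 20.6, 13.2 and 7.87 CPM and Uty, Kdm5d and Eif2s3y at no more than 2.73 CPM, so the label went against the data in every library. The animal section of the study's methods lists its aged mice of 21 months as female and its adult mice as female and male. Clustering without the 8 members gave 31 clusters, and 17987 nuclei were placed in 8 classes by marker genes. The classes are called SGC-like (satellite glia, which wrap the neuron bodies), NMSC-like and MSC-like (non-myelinating and myelinating Schwann cells), neuron-like, fibroblast-like, endothelial-like, mural-like (pericytes and smooth muscle) and myeloid-like. The remaining nuclei sat in clusters with markers of several classes (618 nuclei) or in a cluster left unnamed (654 nuclei). The unnamed cluster held 8 of 9 neuron markers, but its mitochondrial RNA, at 1.92% of UMIs, was over the limit of 1.0% set for naming. Class sizes differed widely: the adult, aged 1 and aged 2 libraries held 3522, 523 and 258 SGC-like nuclei, 236, 195 and 64 endothelial-like nuclei, and 56, 18 and 3 mural-like nuclei. The mural-like class of aged 2 was too small to enter a test. UMIs were summed per library and class, and levels are CPM of that sum. Free RNA was read from barcodes with at most 100 UMIs, and a class level near the free RNA level of the same gene is not read as expression. Such a level does not show that the class lacks the gene either, since the share of free RNA in each sum was not measured. Neuron-like nuclei held 77.7% of the UMIs of classed nuclei, and their part in the free RNA was not tested.

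Levels are given in the order adult, aged 1, aged 2 throughout. A member was called higher or lower in a class by edgeR's quasi-likelihood test, which set the class against the average over all remaining classes with library as a block, at a Benjamini-Hochberg adjusted p under 0.05 over all genes. Of 56 pairs of member and class, 12 were higher and 9 were lower. Over all genes 18.8% of pairs were called higher and 11.6% lower, so the number of calls over the members is close to the background and only the individual patterns are described.

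**Figure D1:**
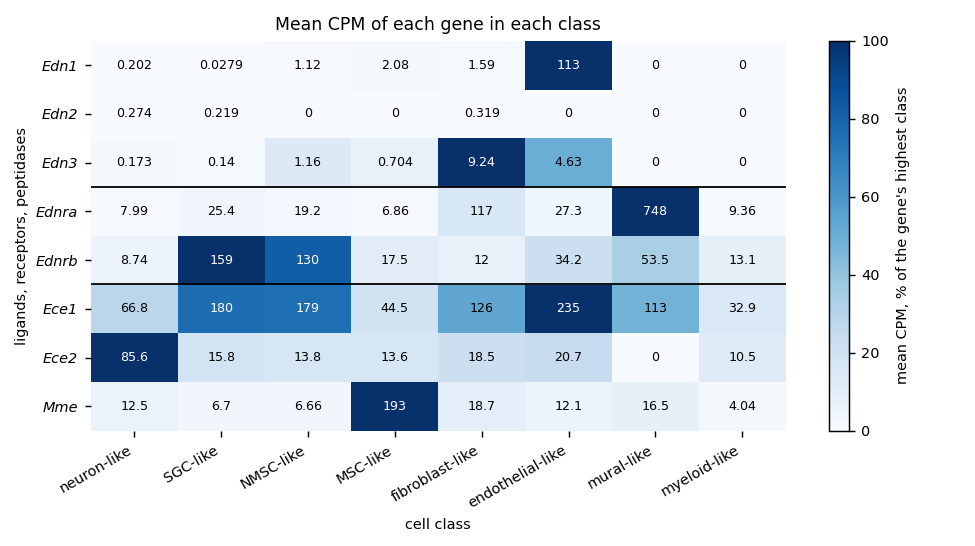
Map of the members (rows) against the 8 classes (columns), printed as mean CPM over libraries and coloured as a percent of the member's highest class; Edn2 is left uncoloured because it had 41 UMIs in all classed nuclei. Edn1 is darkest in the endothelial-like class, Edn3 in the fibroblast-like, Ednra in the mural-like, Ednrb in the SGC-like, Ece2 in the neuron-like and Mme in the MSC-like class, while Ece1 is spread over several classes.

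Edn1, the ligand known best from vessel walls, was concentrated in endothelial-like nuclei. Its level there was 173, 95.5 and 68.8 CPM (mean 113 ± 54.3 SD, n = 3 libraries), from 146, 93 and 22 UMIs. The class next in order, MSC-like, stood at 2.97, 2.24 and 1.02 CPM, which is at the free RNA level of 2.80, 2.54 and 1.18 CPM. The endothelial-like values did not overlap with any other class, and the difference passed the test (edgeR adjusted p = 6.04e-13), in a class where 12.6% of all genes were called higher. Endothelial-like nuclei held 82.6% of the Edn1 UMIs while holding 1.19% of all UMIs. Mural-like nuclei had 0 UMIs of Edn1, which allows up to 20.2 CPM in adult and 39.5 CPM in aged 1, and myeloid-like nuclei also had 0, which allows up to 11.6, 2.96 and 3.59 CPM (3 counts per library, counting error only).

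Within the endothelial-like class Edn1 was uneven. It was found in 32 of 236, 28 of 195 and 10 of 64 nuclei, a mean share of 14.5%. The share with a UMI was 0.0232% in SGC-like nuclei, which should lack the gene, at a median of 3316 UMIs against 2883 in endothelial-like nuclei. The 5 nuclei richest in Edn1 held 38.4%, 62.4% and 72.7% of the class's Edn1 UMIs, out of 32, 28 and 10 nuclei that held the gene, so these shares are not comparable between libraries. Nuclei that held the gene had a mean of 4.56, 3.32 and 2.20 UMIs of it.

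Edn3, the ligand known for its part in enteric and pigment cell development, was a fibroblast-like transcript at a low level. It stood at 8.63, 5.69 and 13.4 CPM in fibroblast-like nuclei (mean 9.24 ± 3.90 SD, n = 3) from 36, 10 and 14 UMIs, against a free RNA level of 1.81, 1.38 and 0.982 CPM. Endothelial-like nuclei were next at 3.56, 7.19 and 3.13 CPM, and the ranges of these classes overlapped. Both passed the test (edgeR adjusted p = 5.55e-06 for fibroblast-like nuclei and 0.00822 for endothelial-like nuclei); 19.5% of all genes were called higher in the fibroblast-like class. The endothelial-like call rested on 11 UMIs and was lost without aged 1, with a fitted log2 difference of 3.39 against 3.99 with all libraries. Edn2 had 41 UMIs in all classed nuclei, 35 of them in neuron-like nuclei, and was too rare to be tested.

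Ednra was highest in mural-like nuclei, the contractile cells around vessels. Its level there was 679 and 817 CPM in adult and aged 1 (mean 748 ± 97.5 SD, n = 2) from 101 and 62 UMIs, and the 3 mural-like nuclei of aged 2 gave 578 CPM. Fibroblast-like nuclei followed at 99.7, 123 and 127 CPM (mean 117 ± 15.0 SD, n = 3). Neither range overlapped with the other or with any further class. The log2 difference from the mean of the other classes was 4.95 ± 0.278 (SE) for mural-like nuclei (edgeR adjusted p = 6.01e-12) and 2.17 ± 0.192 for fibroblast-like nuclei (edgeR adjusted p = 3.23e-09), and 4.82% of all genes were called higher in the mural-like class. An Ednra UMI was found in 80.5% of mural-like nuclei and in 2.22% of MSC-like nuclei, at medians of 2592 and 2983 UMIs.

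The remaining classes stood lower in Ednra. Endothelial-like nuclei stood at 41.6, 21.6 and 18.8 CPM, and their summed level of the 9 mural markers was 767, 373 and 466 CPM, also highest in adult; the part of mural RNA in this value was not tested. SGC-like nuclei stood at 25.4, 27.3 and 23.6 CPM against a free RNA level between 9.6 and 13.6 CPM. Neuron-like nuclei as a whole were at 6.94, 9.30 and 7.73 CPM, below free RNA, and were called lower (log2 difference -1.89, edgeR adjusted p = 1.33e-07) in a class where 20.2% of genes were called lower. As neurons held 77.7% of all UMIs, 40.2% of the Ednra UMIs nevertheless came from them. Fibroblast-like nuclei held 28.3% of the Ednra UMIs, SGC-like nuclei 18.3% and mural-like nuclei 6.3%. MSC-like and myeloid-like nuclei were also called lower, with log2 differences of -2.23 and -1.94.

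Ednrb was a glial transcript. SGC-like nuclei stood at 154, 153 and 169 CPM (mean 159 ± 8.79 SD, n = 3) and NMSC-like nuclei at 152, 116 and 122 CPM (mean 130 ± 19.1 SD, n = 3). All 3 SGC-like values lay above all 3 NMSC-like values, by a narrow margin in adult, and this neighbouring pair was not tested directly. Against the mean of the other classes the log2 difference was 2.97 ± 0.214 (SE) for SGC-like nuclei (edgeR adjusted p = 1.01e-10) and 2.46 ± 0.244 for NMSC-like nuclei (edgeR adjusted p = 4.58e-08), and 19.9% of all genes were called higher in the SGC-like class. MSC-like nuclei, the myelinating Schwann cells, stood at 28.7, 15.7 and 8.17 CPM against free RNA at 31, 24 and 18 CPM. Ednrb thus stood at the free RNA level in myelinating glia and several fold above it in the other glia.

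In the vessel classes Ednrb did not pass the test. Endothelial-like nuclei stood at 49.9, 33.9 and 18.8 CPM and mural-like nuclei at 80.7 and 26.4 CPM, from 12 and 2 UMIs. The 3 mural-like nuclei of aged 2 held 2 UMIs, or 165 CPM, so the level in this class is uncertain. Fibroblast-like, myeloid-like and neuron-like nuclei were called lower, with log2 differences of -1.47, -2.09 and -1.76, in classes where 10.5%, 23.5% and 20.2% of genes were called lower. The fibroblast-like call was lost without adult (log2 difference -1.27), and the myeloid-like call was lost without aged 1 (log2 difference -1.93). Fibroblast-like nuclei carried a high sum of the 6 SGC markers (1753, 1516 and 1551 CPM, against 1564, 1387 and 1373 CPM in SGC-like nuclei) but little Ednrb, at 17.7, 18.2 and 0 CPM. NMSC-like nuclei carried 1180, 909 and 888 CPM of these markers, highest in adult as their Ednrb was, and the part of SGC RNA in that value was not tested.

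Ece1, the main converting enzyme of vessels, was the most widely spread member. Endothelial-like nuclei were highest at 265, 205 and 235 CPM (mean 235 ± 29.6 SD, n = 3), and did not overlap with SGC-like nuclei at 199, 151 and 189 CPM. NMSC-like nuclei stood at 201, 158 and 177 CPM, a range that overlapped with that of SGC-like nuclei. These 3 classes were called higher, with log2 differences of 1.32 ± 0.153 (SE, edgeR adjusted p = 3.96e-07), 1.17 ± 0.138 (3.34e-07) and 1.03 ± 0.149 (1.34e-05). Fibroblast-like nuclei stood at 171, 94.5 and 111 CPM and mural-like nuclei at 67.3 and 158 CPM, and neither passed the test.

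MSC-like and myeloid-like nuclei were low in Ece1. They stood at 63.4, 40.4 and 29.6 CPM and at 46.6, 18.8 and 33.5 CPM, both below free RNA at 86, 60 and 66 CPM, and both were called lower (log2 difference -1.25, edgeR adjusted p = 6.51e-06, and -1.94, edgeR adjusted p = 1.99e-07). Neuron-like nuclei stood at 66.2, 61.7 and 72.4 CPM, close to free RNA, yet held 60.3% of all Ece1 UMIs through their size. A UMI of Ece1 was found in 47.9% of endothelial-like and 48.1% of SGC-like nuclei (medians of 2883 and 3316 UMIs), against 8.27% of myeloid-like nuclei (3332 UMIs).

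Ece2, the second converting enzyme, known from nervous tissue and acidic compartments, was neuronal. Neuron-like nuclei stood at 78.3, 85.9 and 92.6 CPM (mean 85.6 ± 7.16 SD, n = 3), and the other classes between 0 and 33.2 CPM without overlap. The difference passed the test (edgeR adjusted p = 5.54e-12) in a class where 37.0% of genes were called higher. Neuron-like nuclei held 95.0% of the Ece2 UMIs while holding 77.7% of all UMIs. The other classes lay below the free RNA level of 57, 60 and 66 CPM, and mural-like nuclei had 0 UMIs. Ece1 and Ece2 thus differed in their leading class, although both encode converting enzymes.

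Mme, which encodes neprilysin, had its highest level in MSC-like nuclei. It stood at 142, 225 and 212 CPM there (mean 193 ± 45.0 SD, n = 3) against 11.3, 23.9 and 21.1 CPM in fibroblast-like nuclei, the class next in order, and free RNA at 21, 24 and 17 CPM. The log2 difference was 4.41 ± 0.214 (SE, edgeR adjusted p = 7.57e-14), and 17.9% of all genes were called higher in this class. MSC-like nuclei held 33.8% of the Mme UMIs while holding 3.16% of all UMIs, and neuron-like nuclei, with 77.7% of all UMIs, held 55.6%. SGC-like nuclei, the glia highest in Ednrb, stood at 10.6, 5.90 and 3.66 CPM. Myeloid-like nuclei were called lower (log2 difference -2.53, edgeR adjusted p = 0.00372), a call that was lost without aged 1 (log2 difference -1.93).

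**Figure D2:**
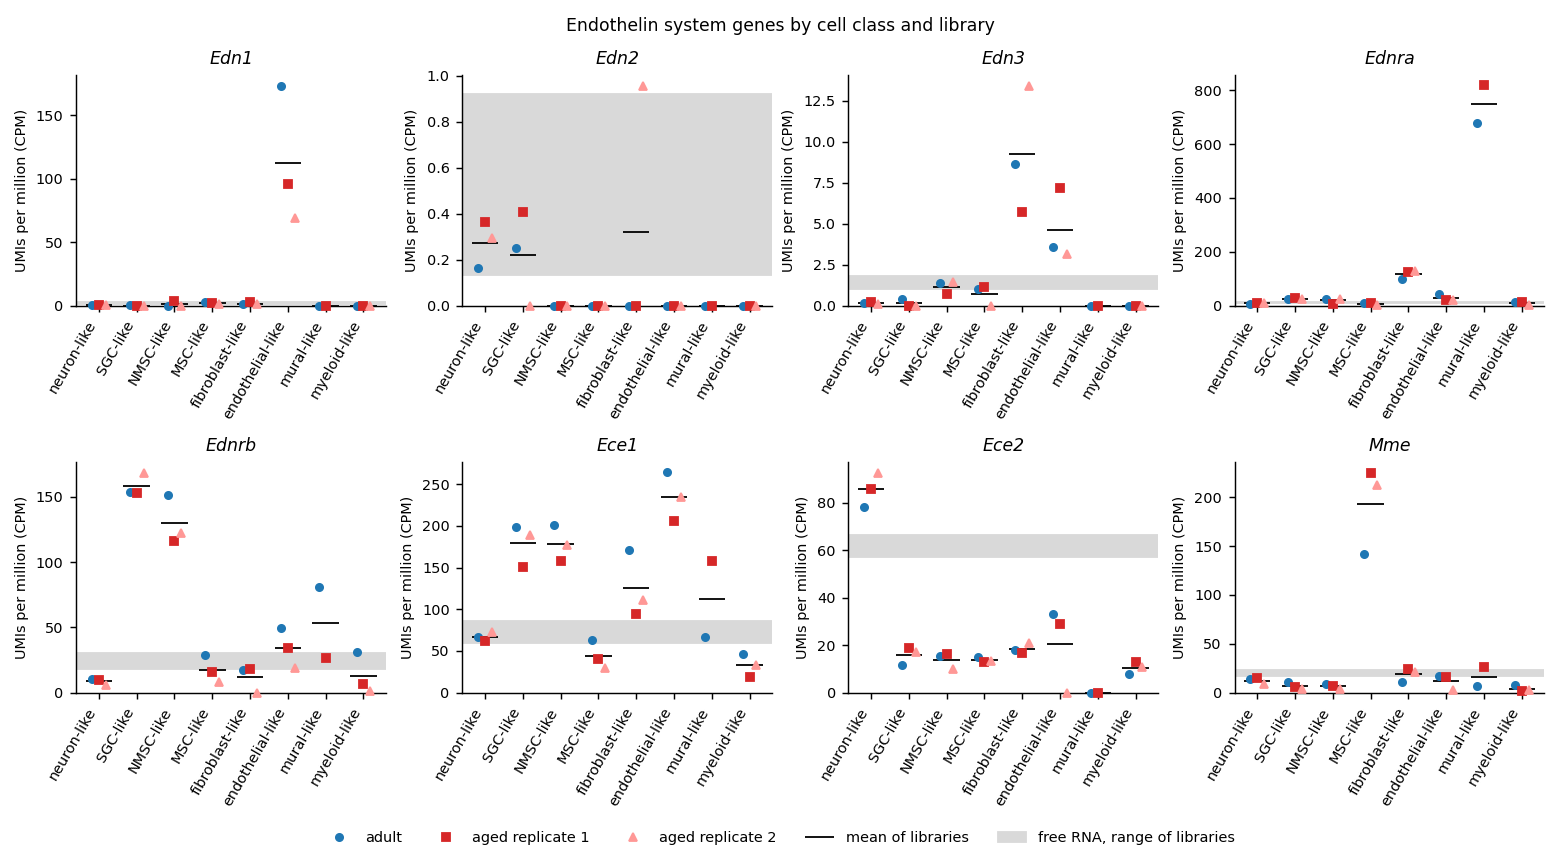
Level of the 8 members in CPM (vertical axis) in each class (horizontal axis), with a point per library and the mean as a line; the grey band is the range of the free RNA level over the 3 libraries. Points of the leading class stand above the band for each member but Edn2, from 68.8 to 173 CPM for Edn1 in endothelial-like nuclei and from 142 to 225 CPM for Mme in MSC-like nuclei.

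The leading classes of Edn1 and Edn3 therefore differed from those of Ednra and Ednrb, and no peptidase led in the leading class of a receptor. Edn1 and the highest Ece1 level were in the same class, endothelial-like, whereas the highest Ednra and Ednrb levels were in mural-like and SGC-like nuclei. Edn3 and the second level of Ednra were both in fibroblast-like nuclei, but not evenly over the clusters of this class, which are described below. The cluster marked by Slc26a7 and Slc4a10 stood at 165, 245 and 209 CPM for Ednra and at 6.27, 2.06 and 0 CPM for Edn3. The cluster marked by Fam78b and Lmo7 stood at 76.2, 99.0 and 67.5 CPM for Ednra and at 16.9, 7.5 and 26.3 CPM for Edn3. Edn3 was too rare to be tested between clusters. Among glia, SGC-like and NMSC-like nuclei had Ednrb and Ece1 with Mme below free RNA, and MSC-like nuclei had Mme with Ednrb and Ece1 at or below free RNA.

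Within nuclei, detection of 2 members together was counted as a description, since deeper nuclei show more of every gene. Of the 70 endothelial-like nuclei with Edn1, 44 also held Ece1, against 33.5 from the product of the shares. Ece1 was thus found in 62.9% of nuclei with Edn1 and in 45.4% of those without, at medians of 3563 and 2794 UMIs. Ednra was found in 5 of these 70 nuclei (product of the shares 5.94) and Ednrb in 3 (6.51). In fibroblast-like nuclei Edn3 and Ednra were found together in 10 nuclei against 9.13 from the product. In SGC-like nuclei Ednrb and Ece1 were found together in 841 nuclei against 753, and Ednra and Ednrb in 158 against 132. In mural-like nuclei both receptors were found in 10 nuclei against 9.66. In MSC-like nuclei Ece1 and Mme were found together in 81 nuclei against 74.1. The part of depth in these counts was not tested.

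Neuron-like clusters were joined into 15 subtypes. Of 75 pairs of member and subtype, for the 5 members that could be tested, 22 were higher and 14 were lower. Over all pairs of gene and subtype 29.5% were called higher and 22.8% lower. The number of calls over the members is thus no larger than the background, and only the individual patterns are described. Ednra was highest in Trpm8 neurons, the cold-sensing neurons, at 46.5, 60.1 and 54.6 CPM, and next in large-fibre neurons, which serve touch and body position, at 12.6, 21.4 and 23.9 CPM. The log2 difference from the mean of the other subtypes was 3.64 ± 0.254 (SE, edgeR adjusted p = 1.19e-15) for Trpm8 neurons and 2.09 ± 0.249 (edgeR adjusted p = 1.81e-09) for large-fibre neurons. Large-fibre neurons with a low share of the nuclear RNA Malat1 were also called higher (13.2, 10.1 and 7.83 CPM, log2 difference 1.04, edgeR adjusted p = 0.0110), at or below the free RNA level in every library. The Trpm8 group was 150, 71 and 43 nuclei. The antisense gene at Ednra stood at 6.3, 7.6 and 6.1 CPM in Trpm8 neurons, far below Ednra there. In large-fibre neurons the antisense gene stood at 6.92, 6.35 and 7.13 CPM. Ednra in large-fibre neurons was below the free RNA level of 13.6 CPM in adult. It was above the free RNA levels of 12.1 and 9.56 CPM in aged 1 and aged 2. The low mean of Ednra over all neurons therefore covered a subtype, Trpm8 neurons, that stood above free RNA in every library.

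The peptidases divided the neurons in another way. Mme was highest in neurons marked by Il1rapl2 and Insyn2b (42.9, 27.9 and 31.6 CPM) and in large-fibre neurons (26.2, 34.8 and 28.0 CPM), with log2 differences of 2.29 ± 0.275 (SE, edgeR adjusted p = 2.51e-09) and 2.02 ± 0.209 (edgeR adjusted p = 5.40e-11). Both stood above the free RNA level of 16.9 to 23.5 CPM in every library. Neurons marked by Skor2 and Col23a1 were also called higher (14.4, 18.7 and 26.9 CPM, log2 difference 1.46). So were large-fibre neurons with a low share of Malat1 (25.5, 30.6 and 18.6 CPM, log2 difference 1.57, edgeR adjusted p = 2.18e-06). Sst and Nppb neurons, the itch neurons that make natriuretic peptide B, stood at 5.4, 0 and 0 CPM and were called lower, a call that was lost without aged 1 or aged 2 (log2 differences -1.52 and -1.66).

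Ece1 showed the opposite order for several of these subtypes. It stood at 90.6, 82.7 and 94.1 CPM in Mrgprd neurons, the nonpeptidergic nociceptors (log2 difference 0.69 ± 0.0944, edgeR adjusted p = 4.97e-08), and at 110, 77.5 and 107 CPM in Sst and Nppb neurons (0.64). It was lower in Il1rapl2 and Insyn2b neurons (26.9, 17.3 and 41.5 CPM, log2 difference -1.25), large-fibre neurons (34.6, 34.3 and 38.0 CPM, -0.84) and Trpm8 neurons (48.2, 40.5 and 38.1 CPM, -0.62). These lower subtypes were below the free RNA level of Ece1. Ece2 varied less: it was highest in Trpm8 neurons at 98.1, 128 and 119 CPM (log2 difference 0.59, edgeR adjusted p = 6.60e-06) and in Mrgpra3 and Tmprss11c neurons at 94.7, 113 and 117 CPM (0.57). Ece2 was also called higher in Th and Tafa4 (0.51), peptidergic (0.47), Smr2 A-fibre peptidergic (0.38) and Mrgprd neurons (0.27). Of the 36 calls by subtype over all members, 23 kept direction and threshold under every alternative that could test them. Without aged 1 alone 10 calls were lost, and the lost calls are not all named here. In the 5 subtypes with a low share of Malat1 it was called lower, among them the large-fibre one (37.3, 53.7 and 51.8 CPM, log2 difference -0.90, edgeR adjusted p = 1.71e-08). The part of RNA quality in this was not tested. The average that every other subtype was set against included these 5, and their part in the higher calls of Ece2 was not tested. Ednrb was called higher in 2 of these low-Malat1 subtypes, at levels between 11.1 and 43.2 CPM around the free RNA level.

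**Figure D3:**
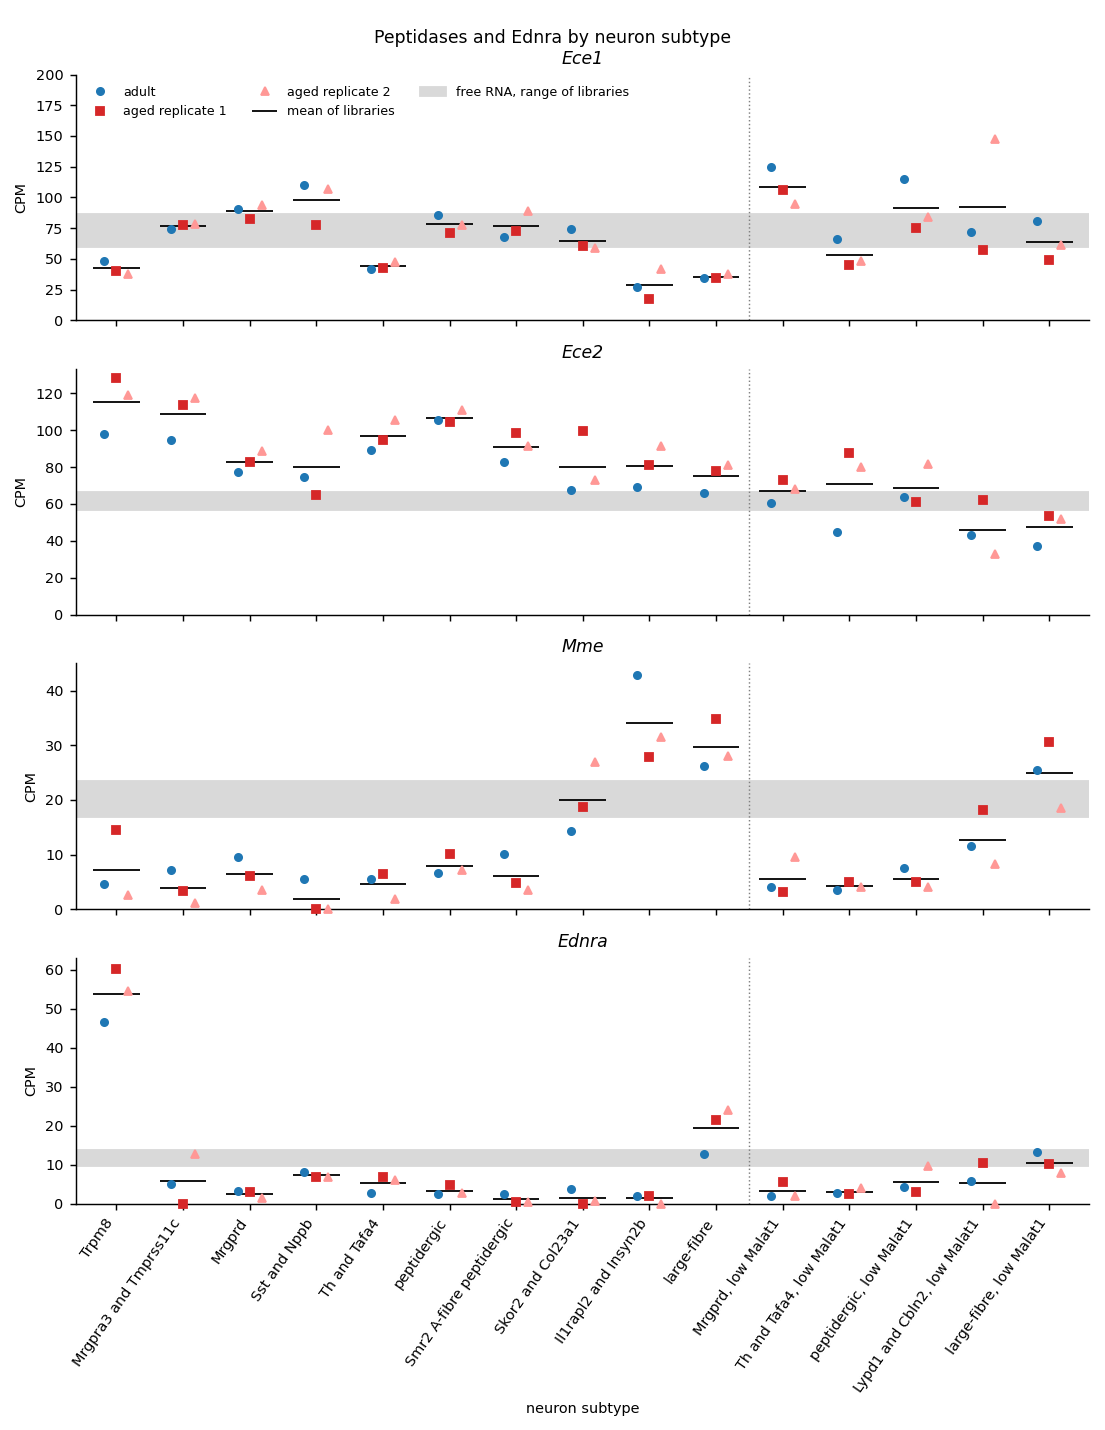
Level of Ece1, Ece2, Mme and Ednra in CPM (vertical axes) in each neuron-like subtype (horizontal axis), a point per library and a line at the mean, with the free RNA range in grey and the low-Malat1 subtypes set apart by a dotted line. Ednra stands out in Trpm8 neurons (46.5 to 60.1 CPM) and Mme in large-fibre (26.2 to 34.8 CPM) and in Il1rapl2 and Insyn2b neurons (27.9 to 42.9 CPM).

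The fibroblast-like nuclei fell into 4 clusters that differed in Ednra and Ece1. Of 20 pairs of member and cluster 3 were higher and 2 were lower, where 7.47% of all pairs were called higher and 5.81% lower. The cluster marked by Slc26a7 and Slc4a10 stood at 165, 245 and 209 CPM for Ednra, above the cluster marked by Fam78b and Lmo7 at 76.2, 99.0 and 67.5 CPM without overlap (log2 difference from the other clusters 1.92 ± 0.286, edgeR adjusted p = 8.81e-05). It also led in Ece1, at 253, 130 and 162 CPM (1.41, edgeR adjusted p = 8.92e-05), together with the cluster marked by Abca6 and Chrm3 at 259, 104 and 109 CPM (1.10, edgeR adjusted p = 0.00152). The Abca6 and Chrm3 call was lost without adult (log2 difference 0.80). The cluster marked by Ranbp3l and Atp13a5 was lower in Ece1, at 41.8, 20.6 and 25.1 CPM (-2.05, edgeR adjusted p = 0.00035), and in Ednra (-1.54, edgeR adjusted p = 0.0456), and the Ednra call was lost whichever library was left out, with log2 differences from -1.97 to -1.10. Edn3 had too few UMIs to be tested between the clusters. It stood at 16.9, 7.5 and 26.3 CPM in the Fam78b and Lmo7 cluster, from 22, 5 and 7 UMIs, and at 4.86, 7.88 and 20.6 CPM in the Abca6 and Chrm3 cluster, from 3, 4 and 7 UMIs, and these ranges overlapped. It stood at 6.27, 2.06 and 0 CPM in the Slc26a7 and Slc4a10 cluster.

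**Figure D4:**
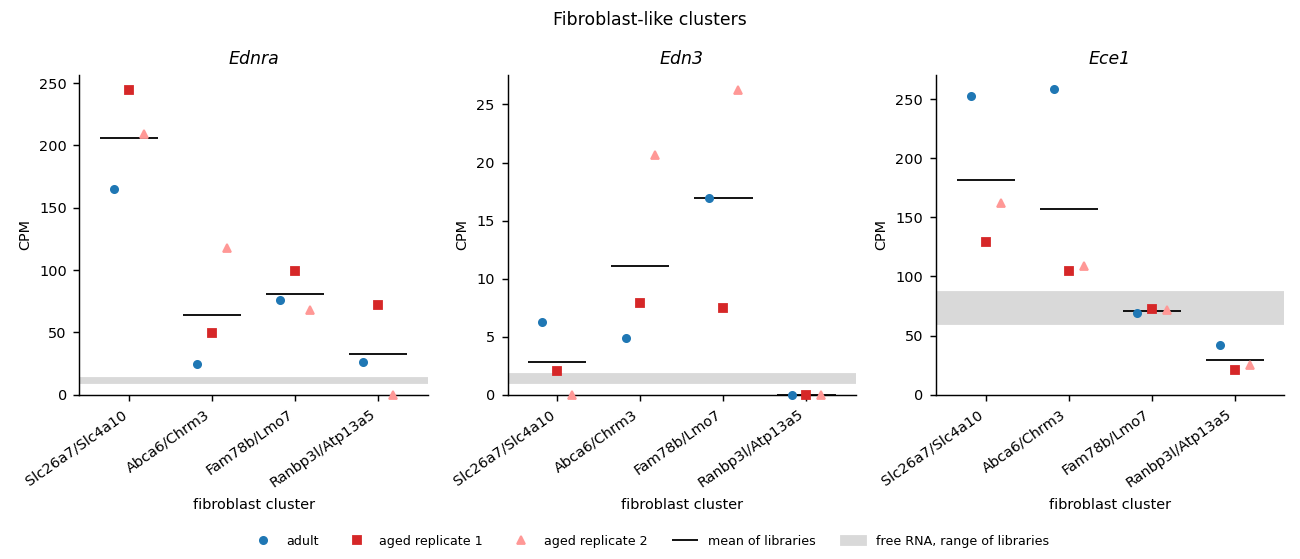
Level of Ednra, Edn3 and Ece1 in CPM (vertical axes) in the 4 fibroblast-like clusters (horizontal axis), a point per library and a line at the mean, with the free RNA range in grey. Ednra lies between 165 and 245 CPM in the Slc26a7 and Slc4a10 cluster and at or below 118 CPM in the others.

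Other genes of the pathway were counted from lists of convertases, peptidases, G proteins, effectors and substrates; some of these genes were clustering features or class markers, so their counts describe the classes. For each list and class with a call, the genes named are the 2 with the largest log2 difference in that class. A fitted difference of a gene at or near 0 in a class depends on the prior count and is no bound. Each count is to be read against the share of all genes called in the class. Higher and lower calls took 37.0% and 20.2% of all genes in neuron-like nuclei, 19.9% and 9.84% in SGC-like, 12.1% and 5.97% in NMSC-like, 17.9% and 12.4% in MSC-like, 19.5% and 10.5% in fibroblast-like, 12.6% and 6.39% in endothelial-like, 4.82% and 4.27% in mural-like and 26.5% and 23.5% in myeloid-like nuclei.

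The convertases Furin, Pcsk5, Pcsk6 and Pcsk7 cut the precursors. All 4 were lower in neuron-like nuclei, furthest Pcsk5 (-1.43) and Pcsk6 (-1.24), with a median of -0.81 against 0.20 over all genes. In endothelial-like nuclei, where Edn1 was highest, the 4 had a median of 0.06 and did not pass the test. In MSC-like nuclei 2 were higher, Pcsk6 (3.21) and Pcsk5 (0.70), and 1 was lower, and in NMSC-like nuclei the same genes were higher (1.34 and 1.28). In SGC-like nuclei Pcsk5 was higher (2.84) and 2 were lower, furthest Pcsk6 (-1.63). In fibroblast-like nuclei Pcsk5 was higher (1.76), while Pcsk6 stood at 0.42 and did not pass. In mural-like nuclei Pcsk5 was lower (-2.14), while Furin stood at 0.56 and did not pass. In myeloid-like nuclei 1 was higher and 2 were lower, Pcsk5 (-2.89) and Pcsk6 (-2.01).

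Of the 3 tested proteases known to cut endothelin outside the members' family, 2 were higher in myeloid-like nuclei: Mmp9, a gelatinase (5.13), and Ctsa, a lysosomal carboxypeptidase (2.62). Both Mmp2 (-3.01) and Ctsa (-0.76) were lower in neuron-like nuclei. In SGC-like nuclei Ctsa was lower (-0.69), and Mmp2 stood at -1.97 and did not pass. In fibroblast-like nuclei Mmp2 was higher (4.23) but is among the markers of that class, and Mmp9 stood at 0.77 and did not pass. Of the neprilysin family apart from the members 1 of 4 genes, Phex, could be tested. It was higher in fibroblast-like (0.91) and SGC-like (0.52) nuclei and lower in myeloid-like nuclei (-0.92).

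The receptors act through G proteins, of which 8 were tested. In fibroblast-like nuclei 1 was higher and 4 were lower, furthest Gnai1 (-1.04) and Gnas (0.75). In endothelial-like nuclei 3 were higher and 2 lower, furthest Gnai1 (-0.83) and Gnai2 (0.80). In neuron-like nuclei 4 were higher and 1 lower, furthest Gnai1 (1.07) and Gna12 (-0.67), and in myeloid-like nuclei 4 were higher and 2 lower, furthest Gnai1 (-2.82) and Gna12 (1.99). Gnai1, an inhibitory G protein, was thus lower in several classes and higher in others. In MSC-like nuclei 2 were higher, Gnai1 (2.38) and Gna12 (0.59), and 1 was lower. In NMSC-like nuclei Gnai1 was higher (1.02), and Gnas stood at -0.33 and did not pass. In SGC-like nuclei 1 was lower, Gnai2 (-0.48), and Gna12 stood at 0.37 and did not pass. In mural-like nuclei 1 was lower, Gnaq (-0.97), and Gna12 stood at -1.11 and did not pass.

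Of the 13 effectors and brakes of the receptors, 6 were higher and 1 lower in endothelial-like nuclei, with Nos3, the nitric oxide synthase of vessels (6.89), and Rgs5 (2.66) furthest. In mural-like nuclei 4 were higher and 2 lower; Nos3 was furthest (-7.16) but did not pass, and Rgs5 (5.27), a marker of that class, was next. In SGC-like nuclei 2 were higher and 5 lower, furthest the calcium channel gene Itpr3 (1.93) and the phospholipase gene Plcb1 (-1.76). In NMSC-like nuclei 2 were higher and 4 lower, furthest Rgs5 (-2.19) and Plcb1 (-1.74). In MSC-like nuclei 3 were higher and 5 lower, furthest Prkca, a protein kinase C gene (2.86), and Plcb1 (2.22). The phospholipase gene Plcb1 thus lay on opposite sides in SGC-like and MSC-like nuclei. In fibroblast-like nuclei 3 were higher and 5 lower, furthest Itpr2 (2.39) and Rgs5 (-1.79). In neuron-like nuclei 6 were higher and 4 lower, furthest Itpr2 (-2.38) and Itpr3 (-1.98). In myeloid-like nuclei 5 were higher and 6 lower, furthest Arrb2 (3.25) and Rgs5 (-2.62).

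Of the 6 tested peptide substrates of neprilysin, 2 were higher in neuron-like nuclei, the pain peptide genes Tac1 (2.22) and Calca (1.61), a share no larger than that of all genes there, while Penk stood at 2.19 and did not pass. In fibroblast-like nuclei 3 were higher and 2 lower, furthest Penk (5.39) and Adm (5.35). In myeloid-like nuclei Tac1 (-1.0) and Calca (-0.89) were lower, while Penk and Adm stood at -5.90 and -4.37 and did not pass. In MSC-like nuclei, where Mme was highest, the 6 substrate genes had a median of 0.22 and did not pass the test.

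The genes most like each member were ranked by Pearson's r of log2(CPM + 1) over the 23 sums of library and class, which share libraries and classes, among 13552 genes. Edn1 was most like Sox18 (0.965), Sox17 (0.960) and Ushbp1 (0.946). Ednra was most like Rasl12 (0.917), and Ednrb was most like Ptprz1 (0.955) and Hey2 (0.929). Edn3 was most like Ecrg4 (0.922), Ece2 most like Cntnap5b (0.975) and Mme most like Pmp22 (0.875), a marker of the MSC-like class. Ece1 was most like Grb10 (0.880).

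The comparison of age asked whether any member differed between 3 and 21 months within a class. The comparison set 1 adult against 2 aged libraries, so 1 residual degree of freedom was left and the adult library was assumed to vary like the aged ones. Of 38 pairs of member and class 1 was higher and 4 were lower in aged libraries, where 3.42% of all pairs were higher and 5.04% lower. Mme rose in MSC-like nuclei (142 against 225 and 212 CPM, log2 difference 0.53 ± 0.169 SE, edgeR adjusted p = 0.0208), where 3.93% of genes were higher. The 9 markers of the MSC-like class, led by myelin genes, summed to 42855 CPM in adult and to 18729 and 17237 CPM in the aged libraries, and their part in the CPM of other genes was not tested. Ece1 and Ednrb fell there, from 63.4 to 40.4 and 29.6 CPM (-0.89 ± 0.242, edgeR adjusted p = 0.00404) and from 28.7 to 15.7 and 8.17 CPM (-1.21 ± 0.343, edgeR adjusted p = 0.00665), where 6.3% of genes were lower.

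In SGC-like nuclei Mme fell from 10.6 to 5.90 and 3.66 CPM (-1.26 ± 0.372, edgeR adjusted p = 0.0100) and Ece1 from 199 to 151 and 189 CPM (-0.43 ± 0.156 after TMM scaling, edgeR adjusted p = 0.0423), where 8.27% of genes were lower and 8.94% higher. The CPM of Ece1 as printed, with no scaling between libraries, gave a log2 difference of -0.23 for the aged mean. The second aged value was within 10 CPM of adult; without aged 1 the log2 difference was -0.23 after TMM scaling and -0.07 in the CPM as printed. The SGC-like class was made of 2 clusters whose mix moved with age: the first held 1903 of 3522, 206 of 523 and 74 of 258 nuclei. Within it Ece1 stood at 203, 135 and 159 CPM and Mme at 11.3, 10.7 and 4.71 CPM. Within the other cluster Ece1 stood at 195, 163 and 205 CPM, with aged 2 above adult, and Mme at 9.80, 2.18 and 3.10 CPM. The part of this mix in the age values was not tested. All of these Ednrb and Ece1 levels in MSC-like nuclei, and the Mme levels in SGC-like nuclei, were at or below free RNA in every library. The summed SGC markers in MSC-like nuclei moved the same way as Ednrb and Ece1 there, at 579, 402 and 379 CPM, with 5 of 6 markers below adult in both aged libraries. The summed MSC markers in SGC-like nuclei stood at 858, 789 and 742 CPM, with 2 of 9 markers below adult in both aged libraries and none at 0. The part of these in the age values was not tested. Each of the 5 age calls was lost under at least 1 alternative.

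The leading ligand and the leading glial receptor were not called by age. Ednrb in SGC-like nuclei stood at 154 in adult and at 153 and 169 CPM in aged libraries (log2 difference after TMM scaling -0.13 ± 0.155, edgeR adjusted p = 0.619). Edn1 in endothelial-like nuclei stood at 173 against 95.5 and 68.8 CPM (-1.08 ± 0.366, edgeR adjusted p = 0.102), lower in both aged libraries. The median of UMIs per SGC-like nucleus was 3106, 7210 and 7805 and the share of Malat1 was 8.75%, 2.06% and 2.21%. In MSC-like nuclei the median was 2423, 3477 and 3796 UMIs and the share of Malat1 was 6.39%, 2.03% and 2.03%. Depth and RNA makeup thus moved with age and cannot be told apart from it. A test of whether the age difference itself differed between classes called 5.72% of genes, and of the members Mme (edgeR adjusted p = 0.0265).

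The pathway lists were also compared by age, with the 2 genes of largest difference named for each list and class with a call. Higher and lower calls took 8.94% and 8.27% of all genes in SGC-like nuclei, 3.46% and 3.87% in NMSC-like, 3.93% and 6.3% in MSC-like, 1.7% and 7.18% in neuron-like, 1.23% and 1.46% in fibroblast-like and 4.45% and 4.19% in myeloid-like nuclei. Of the receptor effectors and brakes, 3 were higher and 3 lower of 12 in aged SGC-like nuclei, furthest Plcb1 (-0.95) and Arrb2, a brake on receptor signalling (-0.85). In MSC-like nuclei 2 of 12 were higher, Prkca (0.57) and Plcb4 (0.55). In NMSC-like nuclei Prkca was higher (0.67), and Rgs5 stood at -1.14 and did not pass. The 8 fibroblast markers in NMSC-like nuclei summed to 449 CPM in adult and to 1222 and 1160 CPM in the aged libraries. Their part in the age values of NMSC-like nuclei was not tested. In neuron-like nuclei Rgs5 was lower (-0.69), and Plcb1 stood at -0.50 and did not pass. The low-Malat1 part of this class differed between the libraries, which held 4597, 2481 and 1303 neuron-like nuclei. Of these, 313, 409 and 119 were low-Malat1 large-fibre, 307, 296 and 112 peptidergic and 103, 205 and 95 Mrgprd nuclei. Low-Malat1 Th and Tafa4 nuclei were 120, 54 and 40, and Lypd1 and Cbln2 nuclei 35, 50 and 13. The part of this mix in the neuron-like age values was not tested. In myeloid-like nuclei Itpr1 was lower (-1.12), while Rgs5 (-1.81) and Itpr3 (-1.45) were further and did not pass.

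Among the convertases Pcsk5 was lower in aged NMSC-like (-1.48), SGC-like (-0.45), fibroblast-like (-0.76), myeloid-like (-2.17) and neuron-like (-0.66) nuclei and was the only convertase called in any class. The other convertases named by the same rule did not pass: Furin in NMSC-like (0.72) and myeloid-like (-0.64) nuclei, and Pcsk6 in SGC-like (0.49), fibroblast-like (0.70) and neuron-like (-0.72) nuclei. Of the proteases Mmp2 was higher in aged fibroblast-like nuclei (1.93), where Ctsa stood at 0.32 and did not pass. In myeloid-like nuclei Ctsa was higher (1.11) and Mmp9 lower (-2.66), while Mmp2 stood at 5.92 and did not pass. Of the G proteins 1 was higher in MSC-like nuclei, Gnai3 (0.72), and 1 in myeloid-like nuclei, Gna12 (1.14), while Gna13 (0.30) and Gnai3 (0.94), respectively, were next there and did not pass.

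Of the substrates of neprilysin, Npy was higher in aged SGC-like (3.98) and neuron-like (2.82) nuclei, while Sst (-0.56) and Penk (0.61), respectively, were next there and did not pass. The 9 neuron markers in SGC-like nuclei also stood higher in aged libraries, at 2127 and 1896 against 1219 CPM, and their part in the Npy value was not tested.

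**Figure D5:**
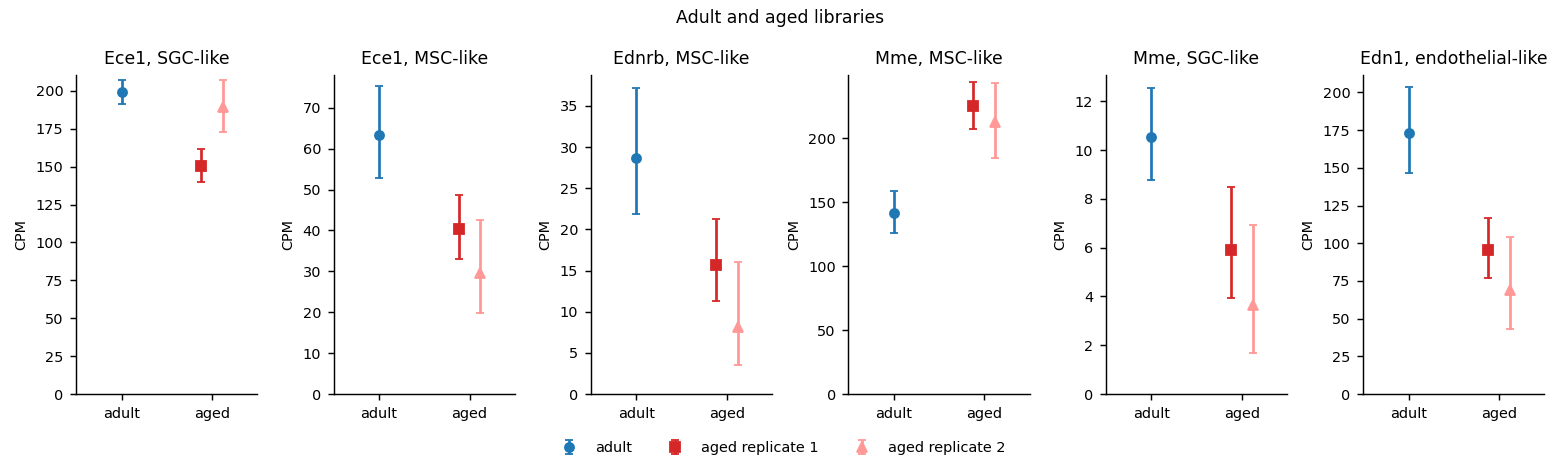
Level in CPM (vertical axis) of 6 pairs of member and class in the adult and the 2 aged libraries (horizontal axis), with exact 95% Poisson intervals that cover counting error only. Mme in MSC-like nuclei is higher in both aged libraries (225 and 212 against 142 CPM), and Edn1 in endothelial-like nuclei is lower in both (95.5 and 68.8 against 173 CPM).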

How the data were processed

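Single-nucleus libraries were made by PIP-seq, a method that partitions nuclei by templated emulsion and reads the 3' end, from nuclear RNA of L3 to L5 DRG. The authors aligned and counted reads with Pipseeker; the submitters' processing notes name mm10, and the annotation is not given in the sources used here. The deposited values are UMI counts per gene and barcode, neither filtered nor normalized. A barcode counted as a nucleus if it held more than 1000 genes. No doublet caller was run. Clusters were left out as mixed where a second class showed a share of at least 0.6 of its markers. The NMSC-like cluster, which held 3 of 8 fibroblast markers, was below this limit and was kept. Nuclei were clustered in Seurat 5.3.0 with SCTransform, RPCA integration by age, 30 principal components and a resolution of 0.8, with the 8 members removed from the clustering features (4 of them were among the 3000 variable features). With the members kept, 96.9% of nuclei had the same class, and gating nuclei by their own markers gave the same class for 62.5%. This differed between classes. Of the SGC-like nuclei 1886 were gated SGC, 383 NMSC and 1646 were left unnamed. Of the 913 NMSC-like nuclei 349 were gated NMSC, 140 SGC and 259 were left unnamed. The gate gave the same class for 396 of 495 endothelial-like and 76 of 77 mural-like nuclei. Clusters were named from marker lists, and the rule that turned marker scores into names was set after the clusters were seen. The members, lists and tests were chosen with earlier results of these data known.

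Counts were summed per library and class (at least 10 nuclei in at least 2 libraries) and tested with edgeR 4.0.16 (R 4.3.3): filterByExpr, TMM, glmQLFit and glmQLFTest, with Benjamini-Hochberg adjustment over all genes and a threshold of 0.05. Class, neuron subtype and fibroblast cluster fits had library as a block; age was fitted in each class with at least 20 nuclei in each library. DESeq2 1.42.0 was an alternative. Every member was named; likeness used genes with a mean of at least 5 CPM and members with at least 100 UMIs, and of each list counts were given, with the 2 genes of largest difference in each class that had a call. The test was tried on simulated data, where it recovered 57.6% of 2-fold and 94.8% of 4-fold class differences among 13884 genes. It recovered 9% of 2-fold and 87% of 4-fold age differences in SGC-like nuclei among 15478 genes. The simulation gave all classes the same profile and a fixed spread, and changed only well counted genes. Edn1, Edn2 and Edn3, with 316, 41 and 110 UMIs, were too rare to be among these. In SGC-like nuclei, where the age differences were simulated, Ednra, Ece2 and Mme, with 496, 272 and 164 UMIs, were also too rare. The shares recovered are therefore not the power for the members. Alternatives were a cut at 2000 genes, DESeq2 size factors or Wald test, no filter, subtraction of free RNA at 10% of each sum, marker gating, neuron subtypes as separate classes, shares after thinning to 1000 UMIs, and leaving out each library. Sequences were read from GRCm38 with GENCODE M21. Intervals and floors (3 counts) cover counting error only.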

Additional observations from a re-analysis of the deposited data

Results flagged for a closer look

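The age difference of Mme differed between classes (edgeR F test over all class by age terms, adjusted p = 0.0265): it was higher in aged MSC-like nuclei and lower in aged SGC-like nuclei, where it was below free RNA. UMIs of members were also counted in nuclei that no comparison used. In clusters with markers of several classes Edn1 stood at 4.53 CPM, with all 10 UMIs in 2 adult nuclei (9.40 CPM) and 0 in both aged libraries, so that without adult it was at 0. There Ednra stood at 16.8, Ednrb at 70.2, Ece1 at 92.4, Ece2 at 13.6 and Mme at 8.15 CPM. The last 2 were below the free RNA level, which ran over the libraries from 56.9 to 66.4 CPM for Ece2 and from 16.9 to 23.5 CPM for Mme. These clusters differed: Ednrb stood at 29.3 CPM in one of 485 nuclei, within the free RNA range of 18.2 to 30.8 CPM, and at 146 CPM in one of 133 nuclei that held 4 of 6 SGC markers, and Ece1 at 69.1 and 135 CPM. In the unnamed cluster Edn3 stood at 5.96 CPM, Ednra at 9.44, Ednrb at 45.7, Ece1 at 85.4, Ece2 at 63.1 and Mme at 39.2 CPM. There Ednra was below its free RNA range of 9.56 to 13.6 CPM, and Ece1 (59.7 to 86.5 CPM) and Ece2 were within theirs. These are values pooled over the 3 libraries with no test.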

How the results depend on the processing

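Among pairs called with all libraries and all settings as reported, none changed direction in the alternatives that could test them (not every pair could be, as above 2000 genes). Of the calls by class, 15 of 21 kept direction and threshold under every alternative that could test them. By neuron subtype 23 of 36 did, by fibroblast cluster 3 of 5 and by age 0 of 5. Of the 21 calls by class, 18 could be tested above 2000 genes and 19 under marker gating. Of pairs called lower by class (9), DESeq2's Wald test gave 15, no filter 14 and marker gating 16; with neuron subtypes as separate classes 45 were higher and 30 lower, over more pairs tested. Of pairs called lower by fibroblast cluster (2), 1 was left with free RNA subtracted. Of the age calls (1 higher, 4 lower), 2 lower were left with members kept among the clustering features, 1 lower above 2000 genes, and 0 higher with free RNA subtracted; DESeq2's Wald test called 0 higher and 0 lower of the 25 pairs it gave an adjusted p, and 1 of 38 pairs had an unadjusted p under 0.05 (13 of 38 by edgeR). Leaving out 1 library gave 11 to 13 higher and 7 to 12 lower pairs by class, 19 to 21 higher and 9 to 11 lower by neuron subtype, and 2 to 3 higher and 1 to 2 lower by fibroblast cluster; the causes were not tested. The age fit without an aged library gives values without a test, and without the adult library it could not be fitted. Thinned to 1000 UMIs, the mean share of nuclei with a UMI went from 14.5% to 6.11% for Edn1 in endothelial-like nuclei, 2.87% to 0.629% for Edn3 in fibroblast-like, 82.8% to 56.4% for Ednra in mural-like, 46.7% to 14.3% for Ednrb in SGC-like, 46.2% to 17.7% for Ece1 in endothelial-like, 48.2% to 7.81% for Ece2 in neuron-like and 40.4% to 15.7% for Mme in MSC-like nuclei, by construction. No paired analysis was possible because the libraries came from mice of different ages and the labels pair none of them. Depth limits Edn2 (41 UMIs) and Edn3 most.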
